A study of Mus musculus with 4 samples.

Results

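Transthyretin (Ttr) and a group of choroid plexus genes were followed across 4 samples of complete left hippocampus from wild-type mice, which the labels number 11, 13, 15 and 17 and call biological replicates. The samples form 1 group, with no treatment and no second genotype, and the sources used here do not give age, sex or strain. Total RNA of each sample was measured on 1 Affymetrix expression array. The 10 genes Ttr, Kl, Folr1, Clic6, Enpp2, Otx2, Sostdc1, Aqp1, Prlr and Slc4a5 were looked up in the array's probe table, and every probe set that the table gives to exactly 1 of these symbols was used. Of the 10 genes 8 had such a probe set, 14 probe sets in all among the 45101 on the array. Enpp2 and Prlr had none and were not analysed here. Ttr was chosen by its measured spread between the samples, so its spread is described and carries no test. The other genes were taken for their known place in the choroid plexus. They and the gene lists set beside them were chosen with earlier results of these data known. Counts over them are therefore descriptions.

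The choroid plexus is a folded epithelium in the brain ventricles that secretes cerebrospinal fluid. It lies along the edge of the hippocampus, where it joins the fimbria, and is not part of the hippocampus. In the brain, Ttr is made chiefly by this epithelium, which secretes it into the fluid as a carrier of thyroxine and, with retinol-binding protein, of retinol. The epithelium also holds the klotho protein Kl, a coreceptor for FGF23, and the folate receptor Folr1, which carries folate into the fluid. Its ion and water transport uses the bicarbonate cotransporter Slc4a5 and the water channel Aqp1. Otx2 is a homeodomain transcription factor needed to form and keep this tissue, Sostdc1 is a secreted antagonist of BMP and Wnt signals, and Clic6 belongs to a family of intracellular chloride channel proteins.

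Promoter sequence upstream of the start site was compared for members other than Ttr, which was left out here. The RefSeq promoter table (build GRCm38.p6) held 4 of these 7 measured genes. The 250 bases before each start are shown for 3 of them. Otx2 is shown as the transcription factor among the members, Kl as a gene highest in the same sample as Ttr, and Aqp1 as the only measured member that was not. Capitals mark matches to the OTX motif TAATCC, the GC box GGGCGG or the TATA box TATAAA on either strand. Otx2 has 4 start windows, and the window shown is the only 1 with a match to the OTX motif.
Otx2, chr14:48665110-48665359, minus strand: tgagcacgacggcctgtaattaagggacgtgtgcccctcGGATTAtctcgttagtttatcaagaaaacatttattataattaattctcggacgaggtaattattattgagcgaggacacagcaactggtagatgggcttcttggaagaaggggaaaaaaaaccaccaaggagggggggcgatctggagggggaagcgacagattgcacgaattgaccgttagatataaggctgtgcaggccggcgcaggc
Kl, chr5:150952357-150952606, plus strand: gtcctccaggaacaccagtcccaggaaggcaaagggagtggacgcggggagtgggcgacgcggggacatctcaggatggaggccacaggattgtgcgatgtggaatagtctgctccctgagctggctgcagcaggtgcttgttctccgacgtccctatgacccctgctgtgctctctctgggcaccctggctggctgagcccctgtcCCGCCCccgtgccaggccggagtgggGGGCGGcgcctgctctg
Aqp1, chr6:55336049-55336298, plus strand: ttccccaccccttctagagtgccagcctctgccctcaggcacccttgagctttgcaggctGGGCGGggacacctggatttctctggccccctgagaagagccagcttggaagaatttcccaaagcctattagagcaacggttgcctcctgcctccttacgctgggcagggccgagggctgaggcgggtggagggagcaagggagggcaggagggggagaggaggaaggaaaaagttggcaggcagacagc
The capitals in Otx2 are a match to the OTX motif on the reverse strand, and those in Kl and Aqp1 are GC boxes. The OTX motif occurred in 1 of the 4 Otx2 start windows and in none of those of Kl, Aqp1 and Slc4a5, while 6.25% of all 32851 windows of this length held it. Kl had 2 matches to the GC box and Aqp1 and Slc4a5 had 1 each, against 32.7% of all windows with at least 1. The TATA box, present in 12.4% of all windows, was found in Slc4a5 and in another Otx2 window. A match describes the letters in the window only.

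The array values are log2 intensities, so a difference of 1 means a doubled signal. Levels of different probe sets are not ranked, since probe sets differ in affinity. A background limit of 7.10 was set at the 95th percentile over 41 measured genes, by their mean level, of testis, liver, skin, muscle and other tissues not expected in hippocampus. Array medians lay between 4.67 and 4.71. The SD of the 18 probe sets for ready-labelled hybridisation controls had a median of 0.0467 and reached at most 0.14. The precision of every value is limited by the number of arrays, 4.

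Signal from control transcripts, chiefly from their 5' ends, was low in samples 15 and 17. The 5' probe set of Gapdh, a glycolytic enzyme, had a level of 11.69, 11.71, 9.67 and 8.52 in samples 11, 13, 15 and 17. Its 3' probe set stayed between 12.31 and 12.33. The 5' probe set of Actb, a cytoskeletal actin, stood at 10.38, 9.92, 9.06 and 8.40 in the same samples, and its 3' probe set read 11.48, 11.17, 10.99 and 10.73. In Gapdh the 3' signal was thus flat, and in Actb both ends had the same order of samples. Samples 15 and 17 are also those with the lowest Ttr values, and the part of this signal in the Ttr values was not tested.

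Ttr was much higher in sample 13 than in the other 3 samples by each of its 4 probe sets. The brightest, 1451580_a_at, had a level of 7.36, 9.84, 6.86 and 6.54 in samples 11, 13, 15 and 17 (mean 7.65 ± 1.5, SD, n = 4). Probe set 1454608_x_at had a level of 7.47, 10.21, 6.92 and 5.86 in samples 11, 13, 15 and 17. Probe set 1459737_s_at had a level of 7.40, 10.16, 7.03 and 5.82 in samples 11, 13, 15 and 17. Sample 13 thus stood apart, and samples 11, 15 and 17 followed in that order each time. The dimmest, 1455913_x_at, gave the same order, with a level of 5.46, 8.35, 4.80 and 3.79 in samples 11, 13, 15 and 17. In the array's naming, the ending a marks transcripts of 1 gene, s probes shared by several transcripts, and x probes that may bind others too.

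On the linear scale, the Ttr signal of sample 13 was 5.60 to 7.39 times that of sample 11, depending on the probe set. It was 7.92 to 11.7 times that of sample 15 and 9.87 to 23.5 times that of sample 17. The probe sets thus gave a close picture of samples 11 and 15, and they spread most over sample 17. There the deviation from the probe set's own mean was -1.11 for 1451580_a_at, and -1.75, -1.78 and -1.81 for the others. In sample 13 the deviations from the mean were 2.19, 2.59, 2.56 and 2.75. Between samples 13 and 11 the difference in Ttr was 2.48 by the brightest probe set and 2.74, 2.76 and 2.89 by the others. Of the control transcripts in these samples, Gapdh had nearly equal 5' signals, whereas the 5' signal of Actb was 9.92 in sample 13 and 10.38 in sample 11.

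**Figure D1:**
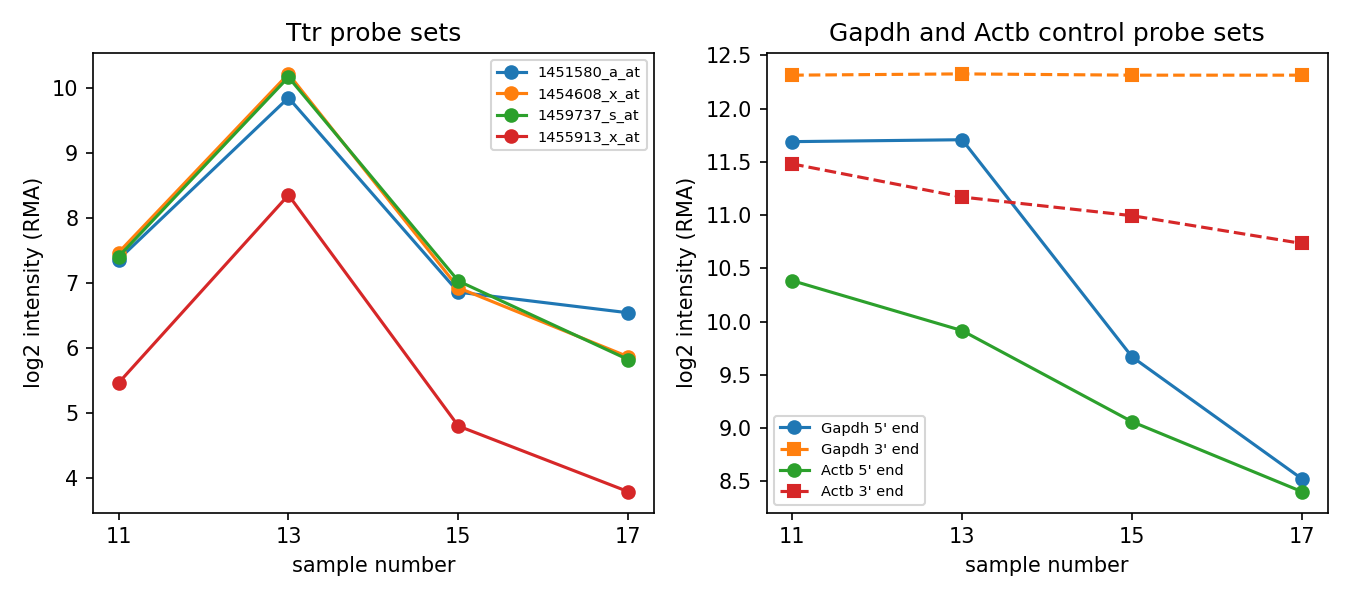
Log2 intensity (y axis) in the 4 samples (x axis, sample number) for the Ttr probe sets (left) and for the 5' and 3' control probe sets of Gapdh and Actb (right). Each point is 1 array, and the lines only join points of 1 probe set: all Ttr probe sets peak in sample 13, while the 5' control signals are high in samples 11 and 13 and low in samples 15 and 17.

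Of the Ttr probe sets 3 of 4 had a mean above the background limit, and each of these was above it only in samples 11 and 13. The dimmest probe set was above it in sample 13 alone. In samples 15 and 17 no Ttr probe set reached the limit, which does not show that the transcript was absent. Without sample 13, no Ttr probe set had a mean above the limit. These calls depend on the limit: with it 0.5 lower, 3 probe sets were above it in sample 15 and 0 in sample 17, and 3 had a mean above it without sample 13. In a tissue sample, more cells of a type and more RNA per cell cannot be told apart. The SD of Ttr, 1.5 for the brightest probe set, ranked first among 18194 genes each taken by its brightest probe set. The next among genes above background was 1.16. This rank restates the choice of Ttr.

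The other 7 measured members were all under the background limit in every sample, with mean levels from 2.79 to 5.41 and no single value above 5.79. Over the members, 3 of 14 probe sets and 1 of 8 genes, all of them Ttr, had a mean above the limit, against 25.9% of all single-symbol probe sets and 35.8% of all genes. The measured members other than Ttr were therefore not detected above this limit in these hippocampi, which does not show that their transcripts were absent. The limit is strict, as the genes that set it had a median of 3.55. Values under the limit are still compared between samples below, where 6 of these 7 genes had their single highest value in sample 13, the sample with the most Ttr signal. Among all genes under background, 19.5% had their single highest value in that sample, and among all genes 19.1%. Each sample is 1 array, so no test of 1 sample against the others was made.

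**Figure D2:**
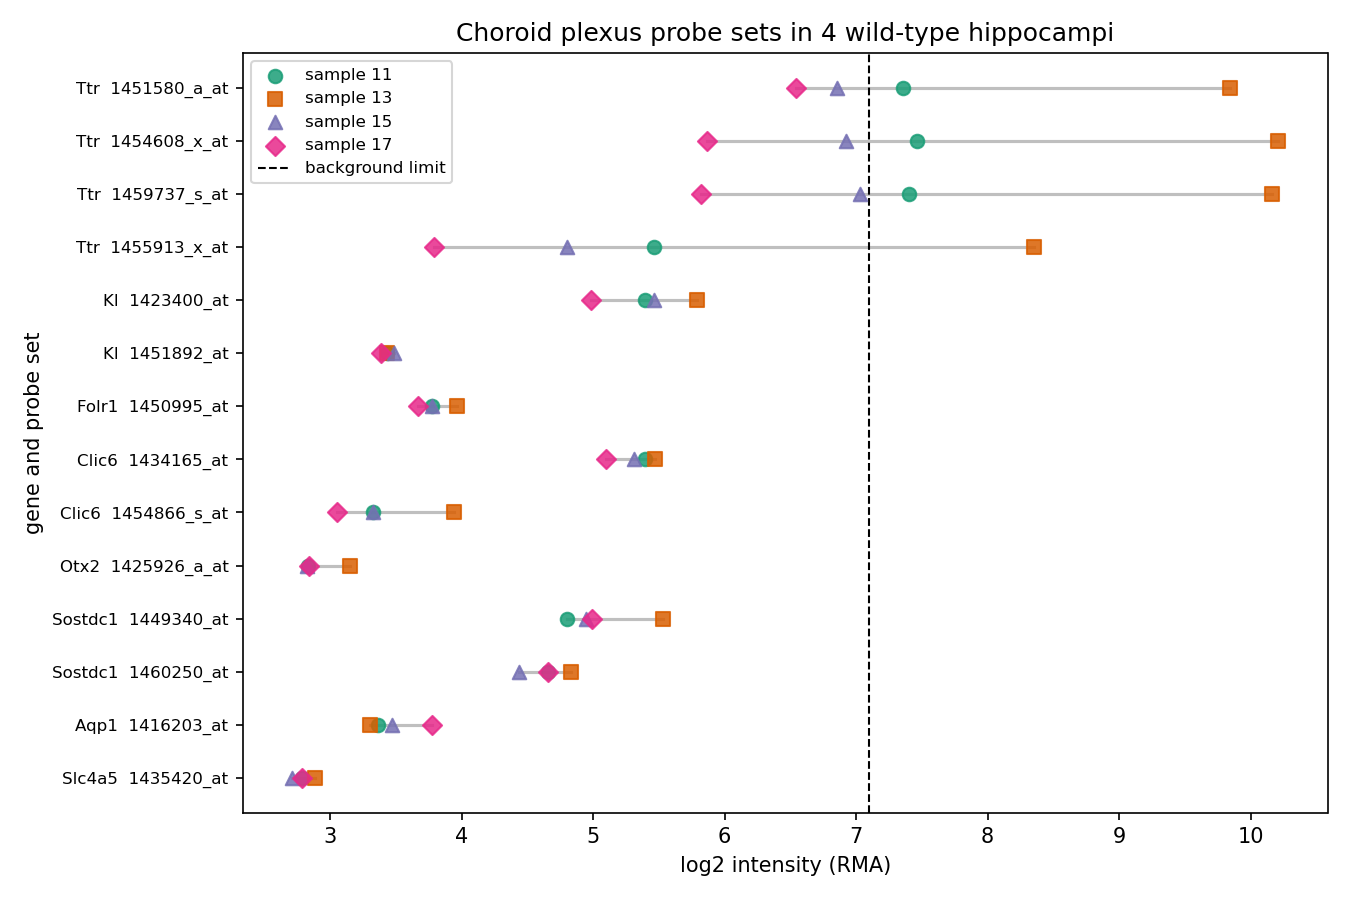
Log2 intensity (x axis) of each of the 14 member probe sets (y axis, gene and probe set name), with 1 marker for each of the 4 samples, a grey line over their range and a dashed line at the background limit of 7.10; equal values overlap. Ttr in sample 13 lies far to the right of its other samples, the other members lie left of the limit, and Aqp1 alone among the genes' brightest probe sets has sample 13 at its low end.

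Among the members other than Ttr, Kl and Sostdc1, a surface and a secreted protein, had the widest ranges by their brightest probe sets. Kl had a level of 5.39, 5.79, 5.47 and 4.99 in samples 11, 13, 15 and 17 by probe set 1423400_at (mean 5.41 ± 0.33, SD, n = 4). Its second probe set, 1451892_at, did not give that pattern: it stood at 3.43 in samples 11 and 13, 3.49 in sample 15 and 3.39 in sample 17. The probe sets of Kl therefore disagree on sample 13 and share only that sample 17 was lowest.

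Sostdc1 was highest in sample 13 by both of its probe sets. By 1449340_at it had a level of 4.80, 5.53, 4.95 and 4.99 in samples 11, 13, 15 and 17, a gap of 0.54 between sample 13 and the next. By 1460250_at it stood at 4.66, 4.83, 4.43 and 4.66 in samples 11, 13, 15 and 17, a gap of 0.18. Folr1, read by 1 probe set, had 3.77, 3.96, 3.77 and 3.67 in samples 11, 13, 15 and 17. Its samples 11 and 15 hold exactly the same value, as do 2 or more samples for 24009 of all probe sets, which narrows the spread of such probe sets.

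Among the transport genes, Clic6 was highest in sample 13 by both probe sets, Slc4a5 by a small margin, and Aqp1 was lowest there. Clic6 stood at 5.39, 5.47, 5.31 and 5.10 in samples 11, 13, 15 and 17 by 1434165_at. By the dimmer 1454866_s_at it stood at 3.33 in samples 11 and 15, 3.94 in sample 13 and 3.06 in sample 17. The first of these was the only probe set of the other members, 1 of 10, with the samples in the order of Ttr, an order found in 2.13% of all genes.

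Slc4a5 had a level of 2.79 in samples 11 and 17, 2.89 in sample 13 and 2.71 in sample 15, a range of 0.18 that is near the median range of 0.19 for all genes under background. Aqp1 had a level of 3.36, 3.30, 3.47 and 3.77 in samples 11, 13, 15 and 17. The water channel thus ran opposite to Ttr, with sample 17 highest and sample 13 lowest.

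Otx2, the transcription factor, was dim in every sample and slightly higher in sample 13. It had a level of 2.83, 3.15, 2.82 and 2.84 in samples 11, 13, 15 and 17. Samples 11, 15 and 17 lay close together, and sample 13 was 0.31 above the nearest.

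Over the 10 probe sets of the members other than Ttr, 8 were highest in sample 13, the exceptions being 1451892_at of Kl and that of Aqp1. These 8 belong to the 6 genes highest there and recount them. The share over all probe sets was not computed, and by gene 19.5% of those under background were highest there. By gene, 3 of 7 were highest there by a gap of at least 0.3, namely Kl, Otx2 and Sostdc1, against 0.839% of all genes under background. Kl and Otx2, with gaps of 0.32 and 0.31, only just passed it. With a gap of at least 0.5, Sostdc1 alone remained, against 0.137% of all genes under background. Over the 6 genes highest in sample 13, the median gap to the next sample was 0.25, and over the 2282 genes under background highest there it was 0.083. Relative to their own means, the 7 genes had a median deviation of -0.022, 0.17, -0.022 and -0.075 in samples 11, 13, 15 and 17. For all genes under background, these medians were -0.0038, -0.0013, -0.0033 and 0. With samples 15 and 17 left out, 6 of the 7 genes were higher in sample 13 than in sample 11, against 40.9% of all genes under background. These are the 6 genes already counted as highest in sample 13, so the count adds no separate result. The gaps were small beside that of Ttr, whose own was 2.48.

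The spread of each probe set was set against that of probe sets of its level with limma, with Benjamini-Hochberg adjustment over all probe sets tested. None of the 10 probe sets of the members other than Ttr was above the limit, so none entered the planned test, in which 0 of 9933 probe sets (0%) passed and 313 had an unadjusted p under 0.05. With no filter on dim probe sets, 0 of the 10 passed, against 0% of 45101. An unadjusted p under 0.05 was found for 0 of the 10 and for 232 of all probe sets, or 0.514%. That is far rarer than the threshold of 0.05 implies, so the unadjusted p-values of this fit run high. Among the 10, the smallest unadjusted p was 0.067, for 1454866_s_at of Clic6 (limma, adjusted p 0.794). For Kl, Sostdc1 and Otx2 by their brightest probe sets it was 0.104, 0.104 and 0.168 in the same limma fit, each with an adjusted p of 0.794. Since the test called no probe set of the array, it sets no member apart and says nothing of the stability of the others. The SD of the 10 probe sets had a median of 0.162, against 0.0861 for all genes under background.

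A further 19 genes of choroid plexus epithelium did not share the pattern as a group. Only 1 of the 19 was above background, against 35.8% of all genes. It was Car12, a carbonic anhydrase also found in other tissues, at 7.36 in samples 11 and 13, 7.28 in sample 15 and 7.52 in sample 17. Of the 19, 4 were highest in sample 13, namely Calml4, F5, Ecrg4 and Sulf1, and 8 in sample 11, against 19.1% and 17.3% of all genes. Their median deviations were 0, -0.017, -0.0062 and -0.0081 in samples 11, 13, 15 and 17.

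Single genes of that list went both ways. Ecrg4, which encodes a secreted peptide precursor, stood at 4.94, 5.63, 4.89 and 5.19 in samples 11, 13, 15 and 17, and Calml4, a calmodulin-like protein, at 3.18, 3.67, 2.79 and 3.18. The potassium channel Kcnj13 was instead highest in sample 11, at 4.26, against 3.66 in samples 13 and 15 and 3.70 in sample 17. The tight junction gene Cldn2 was likewise highest in sample 11, at 5.14 against 5.02 in each other sample. The potassium channel subunit Kcne2 had a range of only 0.034 around a mean of 2.57. These genes lie under background, so beside Car12 the list adds no detected gene to Ttr.

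Ependymal genes, which mark the ciliated lining of the ventricles, were mostly highest in the same sample as Ttr. Of 11 measured genes 9 had their single highest value in sample 13, none in another sample, and 2 shared their highest value between samples, while all 11 were under background, where 19.5% of genes peaked in that sample. The gaps ran from small ones, as in Rsph1 at 0.018 and Rarres2 at 0.093, to 0.93 in Tmem212. Tmem212 stood at 4.19, 5.12, 3.66 and 4.19 in samples 11, 13, 15 and 17. Ccdc153 stood at 4.23, 4.93, 4.21 and 4.26 in the same samples. In both genes sample 13 stood apart, as it did in Dynlrb2, a dynein light chain, at 4.17, 4.89, 4.15 and 4.29. The cilium regulator Foxj1 differed less, at 3.81 in samples 11 and 15, 3.93 in sample 13 and 3.77 in sample 17, and Rarres2, the chemerin precursor, had a mean of 6.60 ± 0.048 (SD, n = 4). The list's median deviations were -0.048, 0.12, -0.04 and -0.057 in samples 11, 13, 15 and 17. With samples 15 and 17 left out, 10 of the 11 were higher in sample 13 than in sample 11, against 40.9% of the genes under background. For the 9 genes highest in sample 13 this already follows from that peak. The list was chosen with earlier results of these data known. The count of 10 was made after the values had been seen, and the part of ependyma in the Ttr values was not tested.

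Myelin genes were also highest in the sample with the most Ttr signal. All 11 measured peaked there, against 18.3% of the genes above background, to which 8 of the 11 belong. Their median deviations were -0.21, 0.46, -0.021 and -0.12 in samples 11, 13, 15 and 17. Means were 12.05 ± 0.064 for Mbp, 6.48 ± 0.45 for Mog, 8.66 ± 0.32 for Mag and 10.27 ± 0.31 for Mobp (SD, n = 4). Ermn, a cytoskeletal protein of oligodendrocytes, had 6.85 in sample 13 and between 6.18 and 6.26 in the others. This list too was chosen with earlier results of these data known. The part of white matter in the Ttr values was not tested.

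Genes of the meninges and of fibroblasts, a further tissue at the surface of the hippocampus, did not peak in sample 13. Of 11 measured, 0 had their highest value there and 5 had it in sample 11, against 19.1% and 17.3% of all genes. Ptgds, a prostaglandin synthase also made by the choroid plexus, stood at 11.73, 11.26, 11.13 and 11.07 in samples 11, 13, 15 and 17. The growth factor Igf2 stood at 8.51, 8.42, 8.16 and 8.11. The matrix gene Col1a1 and the binding protein Igfbp2 had means of 3.98 ± 0.038 and 7.44 ± 0.13 (SD, n = 4). Their order of samples thus differs from that of Ttr, which was highest in sample 13.

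**Figure D3:**
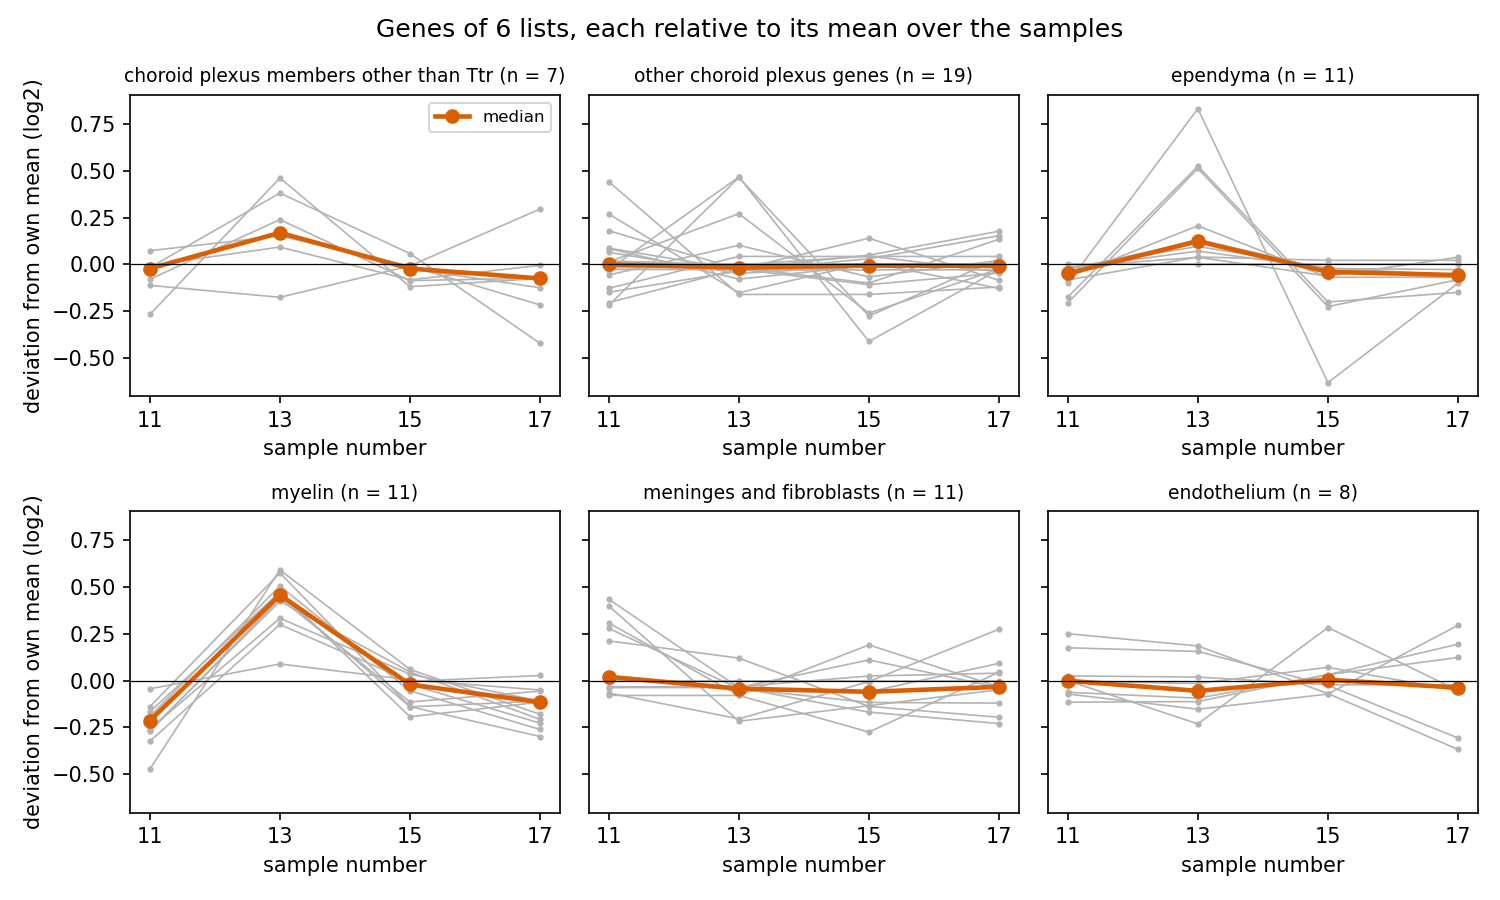
Deviation of each gene from its own mean over the samples (y axis, log2) in the 4 samples (x axis, sample number) for 6 lists; thin grey lines are genes and the thick orange line is their median, with lines only joining points of 1 gene or median. The myelin, ependymal and member panels have their median peak in sample 13, and the panels of other choroid plexus genes, meninges and endothelium do not.

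Ttr is also made by the liver. The 8 liver genes measured here belong to the list that sets the background limit, so that they lie under it, with means from 2.55 to 5.02, is no result. Of the 8, 1 was highest in sample 13 and 4 in sample 11, against 19.5% and 21.8% of the genes under background. That 1 was Fga, a fibrinogen chain, at 2.56 in samples 11 and 15, 2.61 in sample 13 and 2.48 in sample 17. Albumin (Alb) read 3.61 in sample 11 and 3.54 in each of the others. Fga and Alb were singled out after their values had been seen, and the part of liver RNA in the Ttr values was not tested.

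Genes that handle what Ttr carries showed no single pattern across the samples. Of 9 measured genes of thyroid hormone transport, metabolism and signalling, 5 were above background and 0 were highest in sample 13. Of all genes, 35.8% were above background and 19.1% were highest in sample 13. The receptor Thra read 11.55, 11.49, 11.54 and 11.55 in samples 11, 13, 15 and 17, and the deiodinase Dio2, which makes active hormone, read 7.78, 7.58, 7.52 and 7.96. The receptor Thrb and the deiodinase Dio1 were under background, at 3.75 ± 0.19 and 2.81 ± 0.076 (SD, n = 4). Of 13 measured genes of retinol and retinoic acid handling, 1 was above background, against 35.8% of all genes. Highest in sample 13 were 3 of the 13, namely Rbp4, Rdh10 and Cyp26b1, against 19.1% of all genes. Rbp4, the retinol carrier that binds Ttr, stood at 6.85 in samples 11 and 15, 6.89 in sample 13 and 6.75 in sample 17. Cyp26b1, which breaks down retinoic acid and was named after its values were seen, read 6.49 in samples 11 and 15, 6.74 in sample 13 and 6.19 in sample 17. Both had sample 13 highest and sample 17 lowest, as Ttr did. The retinol receptor Stra6 and the retinoic acid binding proteins Crabp1 and Crabp2 had means of 5.81 ± 0.13, 3.70 ± 0.092 and 3.84 ± 0.026 (SD, n = 4).

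The genes most like Ttr were ranked by how far sample 13 exceeded the next highest sample, among the 1189 genes above background that were highest there. Next to the 2.48 of Ttr, the largest gaps were 0.83 for Neat1, a long noncoding RNA of nuclear paraspeckles, 0.71 for Ugt8a, an enzyme of myelin lipids, and 0.58 for Cryab, a small heat shock protein. The likeness is thus in the sample that is highest and not in size. They were followed by Mobp, Fa2h, Mal and Mag of myelin at 0.57, 0.56, 0.50 and 0.48, and by the adhesion molecule Cntn2 and the oligodendrocyte gene Bcas1, at 0.46 and 0.45. Fdps and Insig1 of cholesterol synthesis and the microtubule protein Slain1 had gaps of 0.43, 0.43 and 0.42. Of these 12 genes 5 are on the myelin list, to which 8 of the 1189 genes belong. That list was chosen with earlier results of these data known. Members other than Ttr and the ependymal genes lie under background and could not enter this ranking, although Sostdc1, with its gap of 0.54, and Tmem212, Ccdc153 and Dynlrb2, with gaps of 0.93, 0.67 and 0.59, had gaps as wide as genes in it. Only Fdps, 1 of the 12, had all 4 samples in the order of Ttr, an order that 142 of 6510 genes above background, or 2.18%, had.

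**Figure D4:**
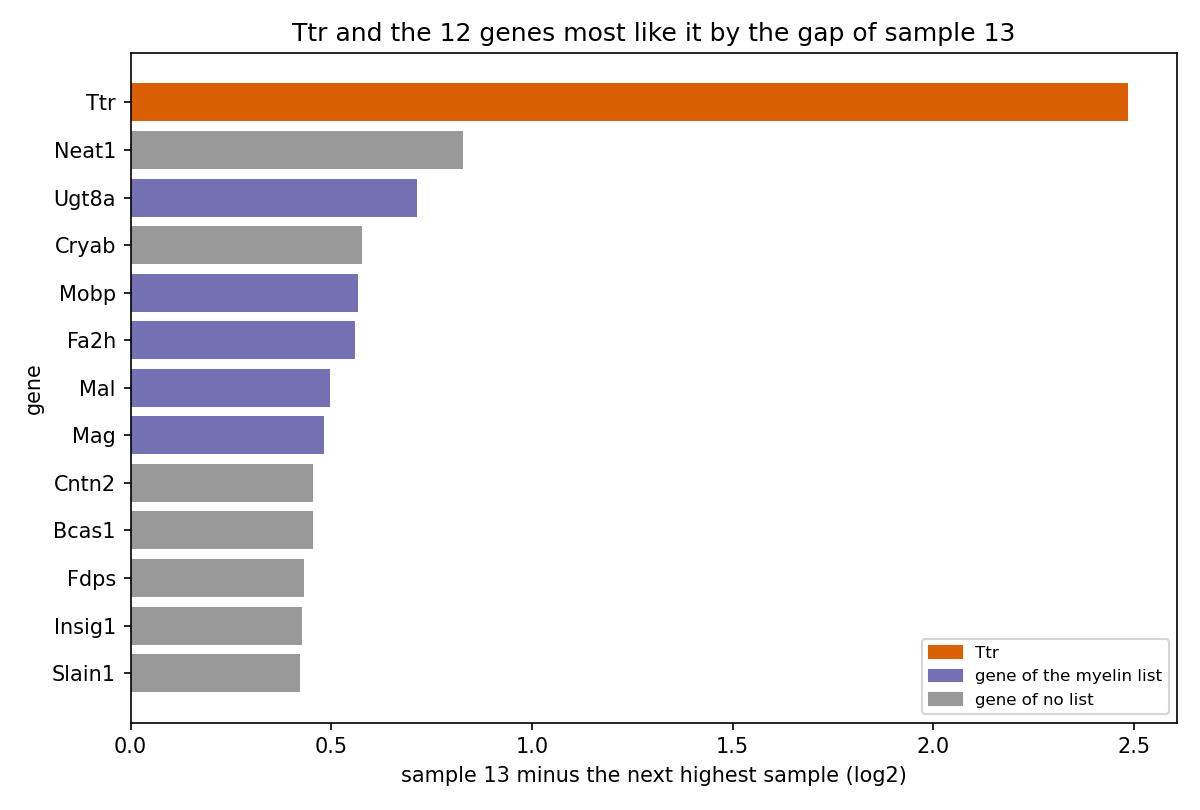
Gap between sample 13 and the next highest sample (x axis, log2; bars start at 0) for Ttr and the 12 genes above background with the next largest gaps (y axis). The bar of Ttr, at 2.48, is the longest, and the next is 0.83 for Neat1. On the myelin list are 5 of the 12 genes, against 8 of the 1189 genes above background highest in sample 13.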

How the data were processed

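RNA of 4 hippocampi was hybridised to 1 array each. The authors deposited a log2 intensity for each probe set, computed by RMA according to the processing notes of the submitters, with software version and settings not given here. RMA brings arrays to a common distribution, so only differences relative to the bulk of genes are seen. Of 45101 probe sets, 34958 had 1 symbol, 932 several and 9211 none in the probe table. Symbols were updated by Entrez identifier through RefSeq (GRCm38.p6), which held 34754 of them. A gene was represented by its brightest single-symbol probe set (18194 genes).

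Spread was tested with limma (lmFit, eBayes with trend and robust fit): residual over prior variance as an F statistic, with 2.31 prior degrees of freedom, Benjamini-Hochberg threshold 0.05. Tested on simulated data, it found most of the widest planted spreads where probe sets shared 1 true variance and none where variances differed as fitted here, so its lack of calls is no evidence of equal spread. Ttr probe sets were among those fitted, so the counts of 0 called include them. As Ttr was chosen for its spread, that outcome is not read for Ttr. The earlier list behind a background limit was not used here; 44 genes were listed and 41 measured.

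Members and lists were chosen with earlier results of these data known. Named genes are all member probe sets, the first 4 measured genes of each list, list genes highest in sample 13 by at least 0.5, and the 12 genes most like Ttr; others were chosen after their values were seen. Alternatives covered limit, filter, probe set, normalization, variance prior and each sample left out. Software was limma 3.58.1 in R 4.3.3, with matplotlib 3.10.9 under Python 3.11.15.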

Additional observations from a re-analysis of the deposited data

Results flagged for a closer look

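In 14 of 62 named probe sets, 1 sample lay far from the other 3 by Dixon's ratio, the gap to the nearest sample over the whole range, whose 95% critical value is 0.83 for 4 samples after rounding. Chance alone flags about 1 in 20, and equal values in the other samples raise the ratio. Some of the named genes were chosen for a wide gap of sample 13, which is a part of the ratio. The count of 14 can therefore not be judged against that rate. Among the members this was Otx2, with sample 13 high and a ratio of 0.960. The remaining members other than Ttr were below the critical value. As Ttr was chosen for its spread, no outcome of this ratio is given for it.

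Sample 13 was also the high one for the ependymal genes Ccdc153 (0.929) and Rarres2 (0.941), the myelin genes Mobp (0.851) and Ermn (0.883), and Neat1 (0.871). Thra was lowest in sample 13, with a ratio of 0.924. Sample 11 was the high one for the choroid plexus genes Kcnj13 (0.934) and Cldn2 (1.0) and the erythrocyte gene Slc4a1 (1.0). Sample 15 was high for Igfbp2 (0.830), Dio1 (1.0) and Crabp2 (0.877), and sample 17 low for Tcf7l2 (1.0). The ratios of 1.0 come from 3 equal values.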

How the results depend on the processing

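Of 125 values recomputed under the alternatives, 113 stayed within the limits set for a change and 12 moved. Part of the 113 could not move. The limit for a mean level was its SD, which leaving out 1 of 4 samples cannot exceed. Centring arrays on their medians leaves each mean as it was. No member other than Ttr entered the spread test where dim probe sets were filtered out. The count of 113 is therefore no measure of stability. The spread test called 0 probe sets in every setting. The results rest on sample 13. Leaving out each sample in turn, the member probe sets above background numbered 0 to 3 and the member genes 0 to 1, 0 being the count without sample 13. With the limit 0.5 lower or at the 90th percentile, 3 Ttr probe sets were above it without sample 13 (chosen after seeing the data). The SD of the brightest Ttr probe set ran from 0.412, without sample 13, to 1.82, and its range from 0.818 to 3.30. Members highest in the same sample as Ttr numbered 2 to 7, a count that always includes Ttr itself. Ependymal genes highest there numbered 1 to 10. The low counts were again those without sample 13, where Ttr is highest in sample 11. The count of other choroid plexus genes above background, 1, became 2 with the limit lowered by 0.5 or set at the 90th percentile (6.26, an alternative chosen after seeing the data), and 0 with the limit raised by 0.5 or with each gene taken as the median of its probe sets. No paired analysis was possible because the samples form a single group. Signals under the limit carry the differences of the members other than Ttr, and how far the array resolves differences at such levels was not measured.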

Other observations

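Lists of markers of other tissues that a dissected hippocampus can hold differed in how many genes peaked in sample 13, where 19.1% of all genes did. Of all genes, 35.8% were above background. Of 8 endothelial genes, 4 were above background and 0 were highest in sample 13, with means of 8.15 ± 0.22 for Cldn5, 8.15 ± 0.053 for Flt1, 4.40 ± 0.28 for Pecam1 and 8.90 ± 0.098 for the thyroxine transporter Slco1c1 (SD, n = 4). Of 7 blood genes, 0 were above background and 3 were highest in sample 13, namely Alas2, Cd3e and S100a8, of which Alas2 had the samples in the order of Ttr over a range of 0.067. Hba-a1, Alas2, Slc4a1 and Ptprc had means of 3.77 ± 0.051, 5.0 ± 0.03, 3.63 ± 0.02 and 4.59 ± 0.17. Of 7 genes of thalamus and habenula, 2 were above background and 0 were highest in sample 13, with Tcf7l2 at 4.01 ± 0.013, Prkcd at 6.53 ± 0.17, Ntng1 at 7.64 ± 0.10 and Rgs16 at 3.81 ± 0.17.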
